A study of Mus musculus with 18 samples.

Results

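The promoters of 5 genes that make, package, take up and break down GABA were followed by ATAC-seq in mouse nuclei from the prefrontal cortex and from the central amygdala (CeA). The genes were Gad1, Gad2, Slc32a1, Slc6a11 and Abat. They were picked by gene symbol, and each had 1 window, so the members were 5 of 26065 promoter windows, which carried 24166 gene names. All 5 passed the filter on low counts. ATAC-seq uses the Tn5 transposase, which cuts open DNA and leaves sequencing adapters there, so a higher count in a window means that its DNA was cut more often. It measures accessibility and not transcription.

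The 18 libraries came from C57BL/6J mice of 2 to 3 months and fell into 8 groups. Somatostatin-positive (SOM+) nuclei, gated on a nuclear GFP, came from fear-conditioned mice (2 CeA and 2 cortex libraries) and from control mice (2 CeA and 2 cortex libraries), all labelled wild type (WT). Bulk nuclei came from mice whose SOM+ cells lacked Erbb4 (knockout, KO; 3 CeA and 3 cortex libraries) and from WT mice (2 CeA and 2 cortex libraries), none of them fear-conditioned. Bulk nuclei hold all cell types of the tissue, and the knockout concerns SOM+ cells, which are only some of them. In bulk nuclei, fewer cells with an open promoter and a less open promoter in each cell cannot be told apart. Each library held 50000 nuclei, and the sort was described as giving technical replicates, so p-values here measure the spread between these libraries only. The genotype entry of the WT bulk libraries also reads as knockout, and WT was taken from their titles. The gate, the mouse line and the nuclear stain differed together between SOM+ and bulk libraries, and their parts cannot be told apart.

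GABA is the main inhibitory transmitter of the adult brain. Glutamate decarboxylase makes it from glutamate in a single step. The enzyme encoded by Gad1 is spread through the neuron, while the one encoded by Gad2 is held mostly at axon terminals. Slc32a1 encodes the vesicular transporter that loads GABA into synaptic vesicles. Slc6a11 encodes a plasma membrane transporter that takes GABA back up, in cortex mainly into astrocytes. Abat encodes GABA transaminase, the mitochondrial enzyme that starts GABA breakdown in neurons and glia. Most neurons of the CeA are GABAergic, whereas GABAergic cells are a minority of cortical neurons.

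The promoter sequences of the 4 members found in the RefSeq promoter table (build GRCm38.p6) are shown because every result below is a count of cuts around these start sites. Each runs 5′ to 3′ on the plus strand from 250 bases before the start site to 50 bases from it on. Capitals mark exact matches on either strand to motifs that had a match here. These were the GC box, searched as GGGCGG, the core of the cyclic AMP response element, searched as TGACG, and the box bound by the TATA-binding protein, searched as TATAAA. Neither the homeodomain core, searched as TAATTA, nor the E box, searched as CACGTG, had a match in the promoters shown. No match overlapped another. Gad1 lies at chr2:70561879-70562178, Gad2 at chr2:22622077-22622376, Slc32a1 at chr2:158610508-158610807 and Slc6a11 at chr6:114130991-114131290.
Gad1: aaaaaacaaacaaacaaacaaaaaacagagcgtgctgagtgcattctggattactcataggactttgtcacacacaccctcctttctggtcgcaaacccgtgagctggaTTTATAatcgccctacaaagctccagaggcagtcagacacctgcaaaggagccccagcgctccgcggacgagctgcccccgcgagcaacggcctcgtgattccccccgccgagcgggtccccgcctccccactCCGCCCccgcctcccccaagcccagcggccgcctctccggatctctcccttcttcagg
Gad2: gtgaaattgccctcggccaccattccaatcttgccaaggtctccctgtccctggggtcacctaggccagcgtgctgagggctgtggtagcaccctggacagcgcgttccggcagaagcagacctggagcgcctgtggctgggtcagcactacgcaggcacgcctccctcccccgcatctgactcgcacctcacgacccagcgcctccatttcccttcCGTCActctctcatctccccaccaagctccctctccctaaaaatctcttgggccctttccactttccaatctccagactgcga
Slc32a1: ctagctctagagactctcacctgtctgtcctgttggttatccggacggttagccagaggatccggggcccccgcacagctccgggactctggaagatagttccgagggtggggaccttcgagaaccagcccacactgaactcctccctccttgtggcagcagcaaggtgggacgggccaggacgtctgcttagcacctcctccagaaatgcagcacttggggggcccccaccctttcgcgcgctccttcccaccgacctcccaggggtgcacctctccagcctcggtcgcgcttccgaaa
Slc6a11: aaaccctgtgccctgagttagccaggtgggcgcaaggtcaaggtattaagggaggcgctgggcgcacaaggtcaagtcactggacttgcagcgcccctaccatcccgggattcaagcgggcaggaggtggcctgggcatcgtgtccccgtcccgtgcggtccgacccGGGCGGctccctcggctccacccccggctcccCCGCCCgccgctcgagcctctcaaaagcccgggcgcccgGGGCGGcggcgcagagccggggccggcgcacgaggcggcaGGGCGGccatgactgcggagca

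Gad1 held a TATA box match on the minus strand, at -141 to -136 from the start site, and 1 GC box match at -8 to -3. Gad2 held only the cyclic AMP core, at -33 to -29 on the minus strand. Slc6a11 held 4 GC box matches and Slc32a1 held none of the 5 motifs. Of 32851 promoters of this length, 35.7% held the GC box, 20.8% the cyclic AMP core, 13.6% the TATA box, 7.15% the E box and 5.29% the homeodomain core. CG dinucleotides numbered 21 in Gad1, 14 in Gad2, 17 in Slc32a1 and 32 in Slc6a11, against a median of 7 over all promoters. The counted windows were given in another build, mm9, and each spanned 2000 bases around a start site, so their levels can be compared per length. They lay on chromosome 2 at 70399186 to 70401185 (Gad1), 22476847 to 22478846 (Gad2) and 158435494 to 158437493 (Slc32a1), on chromosome 6 at 114080235 to 114082234 (Slc6a11) and on chromosome 16 at 8512522 to 8514521 (Abat). The Gad1 window overlapped that of the antisense gene Gad1os, and the Slc32a1 window that of Gm14204. Reads there cannot be assigned to one gene, since Tn5 cuts carry no strand.

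Promoter counts per library ran from 2648959 to 14668694, and a member's window held between 32 and 1158 reads. Levels are CPM after TMM scaling, a count relative to the scaled promoter total of its library. The median of 86 promoters of ribosomal proteins, divided by that of 1102 promoters of olfactory receptors, is a measure of how far open promoters stood above closed ones. It was 17.4 to 35.4 in CeA SOM+, 55.3 to 74 in cortex SOM+, 10.3 to 18.9 in CeA bulk and 9.57 to 14.2 in cortex bulk libraries. It was thus highest in cortex SOM+ libraries, and its part in the member differences below was not tested. In 4 bulk libraries the Y-linked promoters went against the labelled sex. The second KO library of each region, labelled male, had 0 counts in 3 such windows. The first WT library of each region, labelled female, had 243 (CeA) and 627 (cortex). An exchange of these libraries within a region and errors in their sex labels cannot be told apart, and neither was tested. Their KO and WT labels are therefore uncertain too. This bears on every KO comparison and on every comparison with bulk WT nuclei. The results that rest on these libraries are therefore also given without them. Sst, which marks the sorted cells, did not differ detectably between SOM+ control and bulk WT nuclei (18.2 ± 6.28 and 18.3 ± 3.86 CPM, SD, n = 4 each, adjusted p = 0.926). Over markers of GABAergic neurons outside the members, 7 of 12 were higher and 1 lower in SOM+ control than in bulk WT nuclei over both regions. Lower were 8 of 10 glutamatergic, 7 of 10 astrocyte (2 were higher), 7 of 10 oligodendrocyte and 4 of 10 microglial markers. Of all windows 30.6% were called higher and 30.6% lower in this comparison, and the microglial count lay near that share. No marker of these lists was at 0 in all libraries.

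Gad1, the cell-wide decarboxylase, was open in every SOM+ group and least accessible in cortical bulk nuclei. In CeA SOM+ nuclei it had 85.9 and 72.7 CPM in fear libraries and 96.9 and 82.0 CPM in control libraries. In cortex SOM+ nuclei it had 89.7 and 94.0 CPM after fear conditioning and 88.8 and 93.0 CPM in controls. SOM+ libraries thus lay between 72.7 and 96.9 CPM, with both CeA fear values below the 4 cortex ones and the CeA control values on either side of them. In CeA bulk nuclei Gad1 had 66.1, 54.9 and 60.5 CPM in KO and 47.9 and 56.0 CPM in WT libraries. In cortex bulk nuclei it had 26.7, 20.2 and 17.4 CPM in KO and 21.9 and 16.5 CPM in WT libraries. Ordered by their means, the 4 SOM+ groups came first, the CeA bulk groups next and the cortex bulk groups last, with no overlap between these 3 steps. KO and WT overlapped within each bulk step.

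Slc32a1, the vesicular transporter, followed the same order. CeA SOM+ nuclei had 89.1 and 88.1 CPM in fear and 95 and 92.2 CPM in control libraries, and cortex SOM+ nuclei had 90.2 and 105 CPM in fear and 108 and 99.6 CPM in control libraries. CeA bulk nuclei had 82.4, 59.5 and 73.3 CPM in KO and 60.5 and 52.0 CPM in WT libraries. Cortex bulk nuclei had 17.8, 21.9 and 13 CPM in KO and 13.7 and 23.2 CPM in WT libraries. Every SOM+ library was above every bulk library, and every CeA bulk library above every cortex bulk library. In cortex bulk nuclei Slc32a1 was above 43.9% to 54.5% of all windows, and in cortex SOM+ nuclei above 82.9% to 87.5%.

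Gad2, the decarboxylase of terminals, had a different order, with the 2 CeA pools at the top. In CeA SOM+ nuclei it had 65.1 and 66.2 CPM in fear and 63.3 and 56.9 CPM in control libraries. In cortex SOM+ nuclei it had 42.4 and 35.2 CPM in fear and 39.2 and 36.2 CPM in control libraries. No CeA SOM+ library overlapped a cortex one. In CeA bulk nuclei Gad2 had 88.4, 57.9 and 66.1 CPM in KO and 53.7 and 45.7 CPM in WT libraries, and in cortex bulk nuclei 19.5, 21.2 and 22.5 CPM in KO and 19.2 and 23.9 CPM in WT libraries. CeA bulk libraries spanned the whole range of the CeA SOM+ libraries, cortex SOM+ libraries came below both, and cortex bulk libraries last, without overlap between these steps.

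Slc6a11, the uptake transporter, had the lowest mean of the 5 in both regions and both kinds of nuclei, and came close to Gad2 in cortex SOM+ nuclei. It had 11.9 and 12.8 CPM in CeA SOM+ fear and 14.9 and 8.63 CPM in CeA SOM+ control libraries, the last from 32 reads. In cortex SOM+ nuclei it had 36.3 and 35.4 CPM in fear and 39.0 and 34.6 CPM in control libraries. The 4 cortex SOM+ libraries stood above the other 14. In CeA bulk nuclei it had 16.0, 17.0 and 17.8 CPM in KO and 21.6 and 20.2 CPM in WT libraries. In cortex bulk nuclei it had 15.3, 16.0 and 10.8 CPM in KO and 12.2 and 10.3 CPM in WT libraries. Cortex bulk and CeA SOM+ nuclei overlapped at the low end.

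Abat, the transaminase, varied least between groups. It had 53.9 and 40.3 CPM in CeA SOM+ fear, 42.7 and 46.6 CPM in CeA SOM+ control, 40.6 and 40.7 CPM in cortex SOM+ fear and 43.4 and 46.0 CPM in cortex SOM+ control libraries. In CeA bulk nuclei it had 51.0, 46.8 and 46.1 CPM in KO and 57.7 and 34.1 CPM in WT libraries, the widest spread within a group for this gene. Cortex bulk nuclei had 34.3, 35.4 and 31.4 CPM in KO and 32.1 and 33.4 CPM in WT libraries. The SOM+ groups and the CeA bulk groups overlapped, and cortex bulk nuclei lay lowest, reaching above the lower CeA WT library only.

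**Figure D1:**
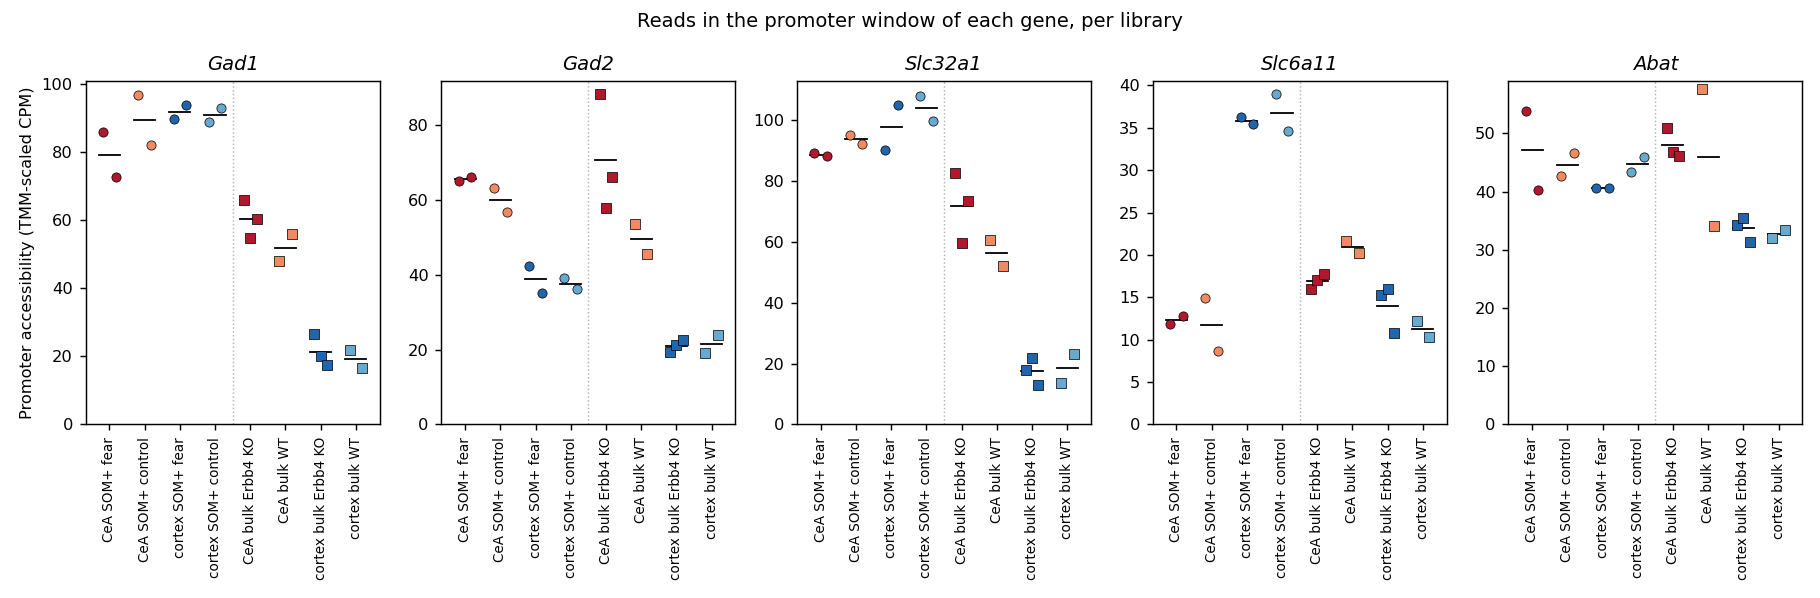
Accessibility of the 5 promoter windows in each library. The vertical axis is TMM-scaled CPM from 0, points are libraries (circles SOM+, squares bulk), and bars are group means. Gad1 and Slc32a1 stay between 72.7 and 108 CPM in all SOM+ libraries and at 26.7 CPM or less in cortex bulk nuclei, while Slc6a11 is high in the 4 cortex SOM+ libraries.

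The sort was tested first, as SOM+ control against bulk WT nuclei within each region (2 libraries each). In cortex, 4 of 5 members were higher in SOM+ nuclei. Slc32a1 was 5.69-fold higher (log2 difference 2.51 ± 0.23, SE, adjusted p = 3.56e-11 by edgeR's quasi-likelihood test with Benjamini-Hochberg adjustment over all windows), Gad1 4.69-fold (2.23 ± 0.22, adjusted p = 6.52e-11) and Slc6a11 3.22-fold (1.69 ± 0.26, adjusted p = 8.28e-07). Gad2 was 1.76-fold higher (0.82 ± 0.22, adjusted p = 0.00124). Abat did not pass the threshold of 0.05, with a log2 difference of 0.45 ± 0.21 (adjusted p = 0.0605), and was called without KO library 3 of cortex (0.45, adjusted p = 0.0363). This background was high, since 62.1% of all 25246 windows were called in cortex and 31.5% were called higher. The median log2 difference was 1.69 over the members and -0.074 over all windows, and Slc32a1 ranked 102 from the top of all windows. The Gad2 call was lost with limma on cyclic loess values (0.27, adjusted p = 0.271) and without the 4 libraries of contrary sex (0.65, adjusted p = 0.0698).

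In CeA the same comparison gave smaller differences and one of opposite sign. Gad1 was 1.74-fold higher in SOM+ control nuclei (0.80 ± 0.20, adjusted p = 0.00413) and Slc32a1 1.65-fold higher (0.73 ± 0.22, adjusted p = 0.0134). Slc6a11 was lower, with a log2 difference of -0.80 ± 0.28 (adjusted p = 0.0315). Gad2 (0.26 ± 0.21, 95% interval -0.16 to 0.68, adjusted p = 0.382) and Abat (-0.053 ± 0.21, interval -0.48 to 0.38, adjusted p = 0.882) did not pass. Against 3 of 5 members, 23.2% of all windows were called, 13.7% higher and 9.58% lower. The 5865 called windows fell to 2321 without the first CeA WT library, to 3083 to 3263 without the second or without either CeA control library, and to 1559 without the 4 libraries of contrary sex. With total count scaling 2364 of 5811 called windows were higher, against 3447 of 5865 with TMM. The 3 CeA calls rested on few libraries. None was kept without the 4 libraries of contrary sex, where Gad1 was at 0.70 (adjusted p = 0.149), Slc32a1 at 0.82 (adjusted p = 0.0816) and Slc6a11 at -0.68 (adjusted p = 0.304), and 1 library was then left in CeA WT. Only 1 of the 3 was kept when either CeA control or either CeA WT library was left out, and Gad1 (0.53, adjusted p = 0.0633) and Slc32a1 (0.49, adjusted p = 0.121) were lost with limma on cyclic loess values. Slc32a1 was also lost under total count scaling (0.57, adjusted p = 0.0505).

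Averaged over both regions, Slc32a1 (1.62), Gad1 (1.51), Gad2 (0.54 ± 0.15, adjusted p = 0.0021) and Slc6a11 (0.44 ± 0.19, adjusted p = 0.0425) were higher in SOM+ control nuclei, where 61.1% of windows were called and 30.6% called higher. Under total count scaling 6051 of 15523 called windows were higher, against 7718 of 15437 with TMM. Abat stood at 0.20 ± 0.15 (adjusted p = 0.253), and at 0.43 (adjusted p = 0.0355) without the first CeA WT library. The average covers opposite signs for Slc6a11, and its call was lost under total count scaling (0.25, adjusted p = 0.329), with limma on cyclic loess values (0.27, adjusted p = 0.201), without the 4 libraries of contrary sex (0.59, adjusted p = 0.0816) and without 1 library in 8 cases. These were either cortex control, either cortex fear, either CeA WT, the second cortex WT and the first CeA control library, the last giving 0.21 (adjusted p = 0.443). Gad2 was lost with limma on cyclic loess values only (0.16, adjusted p = 0.357).

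The difference between the regions was itself tested, as SOM+ control against bulk WT in CeA less the same in cortex. It was called for 3 members, all negative, against 24.7% of all windows of which 15.2% were called negative and 9.46% positive. The 6229 called windows fell to 3942 without the second cortex control library, to 4033 without the second CeA WT library and to 2612 without the 4 libraries of contrary sex. Slc6a11 had the largest at -2.49 ± 0.38 (adjusted p = 1.7e-05), below which lay 0.218% of all windows. Slc32a1 had -1.78 ± 0.32 (adjusted p = 0.000115) and Gad1 -1.43 ± 0.29 (adjusted p = 0.000499). The 3 calls were kept in each fit without 1 library and without the 4 libraries of contrary sex, where the differences were -2.53 for Slc6a11, -1.25 for Slc32a1 and -1.73 for Gad1. Gad2 (-0.56, interval -1.16 to 0.05, adjusted p = 0.173) and Abat (-0.50, interval -1.11 to 0.10, adjusted p = 0.222) did not pass. With total count scaling 3147 of 6349 called windows were positive, against 2389 of 6229 with TMM.

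**Figure D2:**
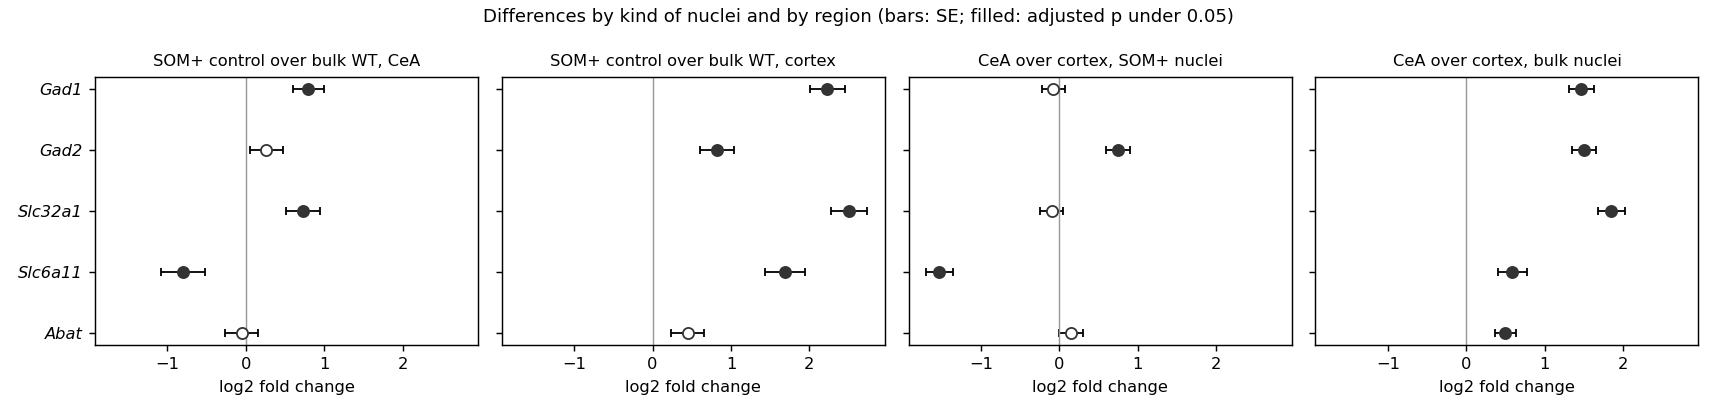
Log2 differences of the 5 windows for SOM+ control over bulk WT nuclei in CeA and in cortex, and for CeA over cortex in SOM+ and in bulk nuclei. Bars are SE and filled points have an adjusted p under 0.05. Slc6a11 is at -0.80 in CeA and 1.69 in cortex for the sort, and at -1.53 in SOM+ and 0.59 in bulk nuclei for the region.

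Between regions, SOM+ nuclei separated the members. Gad2 was higher in CeA than in cortex SOM+ nuclei, at 62.8 ± 4.15 and 38.3 ± 3.23 CPM (SD, n = 4 each), a log2 difference of 0.75 ± 0.15 (adjusted p = 2.51e-06). Slc6a11 was lower in CeA, at 12.1 ± 2.61 and 36.3 ± 1.93 CPM, with a log2 difference of -1.53 ± 0.17 (adjusted p = 7.06e-17). Only 0.886% of all windows were lower than that. Gad1 (-0.077, interval -0.37 to 0.22, adjusted p = 0.694), Slc32a1 (-0.10, interval -0.40 to 0.20, adjusted p = 0.592) and Abat (0.15, interval -0.14 to 0.44, adjusted p = 0.417) did not pass. Of all windows 48.3% were called, 21.1% higher and 27.1% lower in CeA. The scaling shifted this comparison, since the median over all windows was 0.042 with TMM and 0.26 with total counts, and 7911 of 12854 called windows were higher under total counts against 5314 of 12143 with TMM. Gad1 (0.14) and Slc32a1 (0.12) then took the other sign and stayed uncalled, Abat (0.36, adjusted p = 0.0184) was called, and Gad2 (0.97) and Slc6a11 (-1.32) kept sign and call.

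In bulk nuclei all 5 members were higher in CeA than in cortex, where 16.9% of windows were called, 6.9% higher and 9.98% lower. The 4253 called windows fell to 889 without the second CeA WT library, 895 without the second cortex WT library, 1415 (CeA) and 1375 (cortex) without a first WT library, 2726 and 2691 without KO library 2 or 3 of CeA, and 645 without the 4 libraries of contrary sex, and numbered 6991 without KO library 1 of cortex. Slc32a1 led at 65.5 ± 12.1 and 17.9 ± 4.64 CPM (SD, n = 5 each), with a log2 difference of 1.85 ± 0.17 (adjusted p = 2.35e-07), and ranked 13 of 25196 windows from the top. Gad2 had 62.4 ± 16.3 and 21.2 ± 1.98 CPM (1.5 ± 0.15, adjusted p = 6.27e-07, rank 38), and Gad1 57.1 ± 6.76 and 20.5 ± 4.07 CPM (1.47 ± 0.16, adjusted p = 1.6e-06, rank 47). Slc6a11 (18.5 ± 2.33 and 12.9 ± 2.56 CPM) and Abat (47.1 ± 8.63 and 33.3 ± 1.60 CPM) differed by 0.59 ± 0.18 (adjusted p = 0.0304) and 0.50 ± 0.13 (adjusted p = 0.0143). The median log2 difference was 1.47 over the members and 0.029 over all windows. Gad1, Gad2 and Slc32a1 were called in each fit without 1 library and without the 4 libraries of contrary sex (1.68, 1.45 and 1.79). Slc6a11 (0.71, adjusted p = 0.273) and Abat (0.34, adjusted p = 0.54) lost their calls without those 4, leaving 3 members called, and 3 were also left without the first WT library of either region, where Abat was at 0.32 (CeA) and 0.24 (cortex). The Slc6a11 call was further lost without the second WT library of either region, KO library 2 or 3 of CeA or KO library 3 of cortex, with an adjusted p of up to 0.263. With total counts 2573 of 4535 called windows were higher, against 1739 of 4253 with TMM.

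Markers of neuron classes moved with the bulk difference. The summed level of 12 GABAergic markers was 390 to 543 CPM in CeA bulk and 212 to 240 CPM in cortex bulk libraries. Of the 12, 5 were higher and none lower in CeA (6.9% and 9.98% of all windows). That of 10 glutamatergic markers was 232 to 294 CPM in CeA bulk and 510 to 668 CPM in cortex bulk libraries. Of the 10, 8 were lower in CeA (9.98% of all windows). In SOM+ nuclei the GABAergic sums were 439 to 561 CPM in CeA and 582 to 625 CPM in cortex. There 4 of 12 were higher and 6 lower in CeA (21.1% and 27.1% of all windows). The glutamatergic sums were 183 to 199 CPM in CeA SOM+ and 177 to 224 CPM in cortex SOM+ nuclei. The part of the marker levels in the member differences was not tested. Astrocyte markers, of interest for Slc6a11, summed to 142 to 156 CPM in cortex SOM+ and 177 to 269 CPM in cortex bulk nuclei, and to 103 to 132 CPM in CeA SOM+ and 188 to 231 CPM in CeA bulk nuclei. In cortex 2 of 10 were higher and 6 lower in SOM+ control nuclei than in bulk WT (31.5% and 30.6% of all windows). In CeA none was higher and 6 were lower (13.7% and 9.58% of all windows). Slc6a11 was thus higher in cortex SOM+ nuclei, where the summed astrocyte level was lower, and lower in CeA SOM+ nuclei, where that level was lower too. The part of astrocytes in the Slc6a11 values was not tested.

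Ratios of 2 members within a library do not depend on how libraries are scaled. Gad1 over Gad2 was 1.10 to 1.53 in CeA SOM+ and 2.12 to 2.67 in cortex SOM+ nuclei, with no overlap, and 0.747 to 1.22 in CeA bulk and 0.69 to 1.37 in cortex bulk nuclei, which overlapped. Slc32a1 over Gad2 behaved alike, with 1.33 to 1.62 in CeA SOM+ and 2.13 to 2.97 in cortex SOM+ nuclei, and 0.932 to 1.14 in CeA bulk and 0.578 to 1.03 in cortex bulk nuclei. Both ratios were therefore higher in each cortex SOM+ library than in any other library. Open promoters also stood furthest above closed ones in cortex SOM+ libraries (55.3 to 74, against 17.4 to 35.4 in CeA SOM+ libraries). In bulk libraries that measure was 10.3 to 18.9 (CeA) and 9.57 to 14.2 (cortex). Its part in the ratios was not tested. Gad1 over Slc32a1 overlapped among all 4 pools, with medians of 0.927 in CeA SOM+, 0.916 in cortex SOM+, 0.825 in CeA bulk and 1.34 in cortex bulk nuclei. Slc6a11 over Abat was 0.185 to 0.349 in CeA SOM+ and 0.751 to 0.899 in cortex SOM+ nuclei, and 0.314 to 0.592 in CeA bulk and 0.31 to 0.452 in cortex bulk nuclei. Slc6a11 over Gad1 had another order, at 0.105 to 0.176 in CeA SOM+ and 0.372 to 0.439 in cortex SOM+ nuclei, and 0.242 to 0.451 in CeA bulk and 0.559 to 0.79 in cortex bulk nuclei, which lay highest. These ratios are descriptions with no test.

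**Figure D3:**
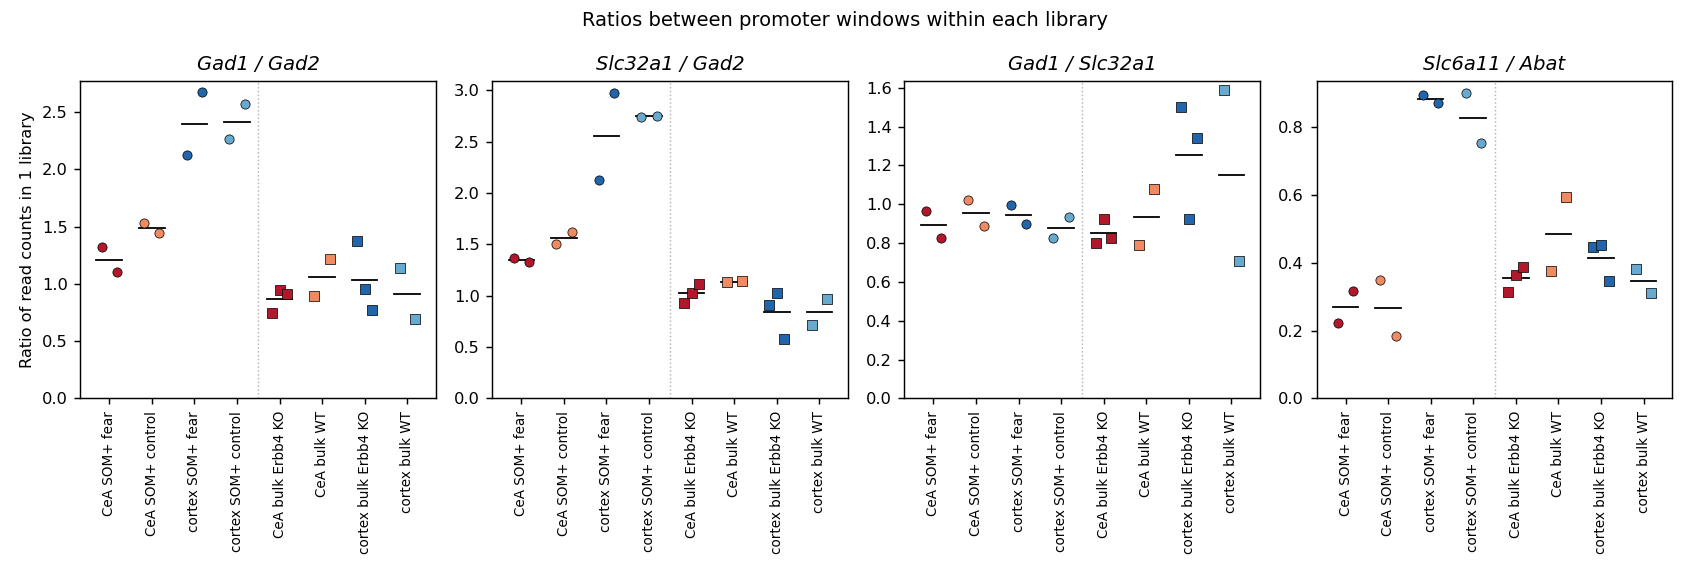
Ratios of the read counts of 2 member windows within each library, by group. The vertical axis is the ratio from 0, points are libraries and bars group means. Gad1 over Gad2 is 2.12 or more in the 4 cortex SOM+ libraries and 1.53 or less elsewhere, while Gad1 over Slc32a1 overlaps among the 4 pools of region and kind of nuclei.

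Patterns across the 8 group means were most alike for Gad1 and Slc32a1, with Pearson's r of 0.995 in log2 CPM. Each was the other's closest of the 18983 or 18984 windows ranked. After Slc32a1, the windows closest to Gad1 were Hsp90ab1 (0.991), Ubald1 (0.99), Zdhhc12 (0.99) and Mir133c (0.988), and after Gad1 those closest to Slc32a1 were Rptoros (0.988), Pde9a (0.988), Trim35 (0.984) and Mast3 (0.984). Gad2 lay closest to Dlx5 (0.98), Bcl11b (0.979), Dlx6 (0.972), Abcg8 (0.972) and Six3 (0.971). Windows above an r of 0.95 numbered 120 for Gad1, 70 for Slc32a1 and 13 for Gad2. Slc6a11 lay closest to Lgals1 (0.996), Socs3 (0.989), Mir378a (0.987), Adam11 (0.987) and Tmem132c (0.986), with 108 windows above 0.95. Abat lay closest to DQ267102 (0.982), Ly6h (0.971), Acot11 (0.965), Sp9 (0.965) and Rap1gap (0.963), with 9 above 0.95. Among the members, Gad2 and Abat had an r of 0.95, Gad1 and Gad2 of 0.77, and Gad2 and Slc6a11 of 0.01. The 8 means share libraries, sort and depth by region, so these values describe likeness and carry no test.

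Beyond the members, 22 further genes of GABA uptake, supply and breakdown were measured, all of which passed the filter. Between SOM+ control and bulk WT nuclei over both regions, 7 were higher (30.6% of all windows) and 5 lower (30.6%), with a median log2 difference of -0.14 against -0.069 over all windows. In cortex 8 were higher (31.5% of all windows) and 5 lower (30.6%), and in CeA none was higher (13.7%) and 1 lower (9.58%). Among transporters, Slc6a6 for taurine was higher in SOM+ control nuclei over both regions (0.35, adjusted p = 0.0281), Slc6a13, which carries GABA and taurine, was lower (-1.04, adjusted p = 0.00361), and Slc6a12, which carries betaine and GABA, had -0.47 (adjusted p = 0.176). Among genes of glutamate and glutamine supply, the astrocytic glutamate transporters Slc1a3 (-1.90, adjusted p = 8.68e-09) and Slc1a2 (-0.88, adjusted p = 9.29e-07) were lower in SOM+ nuclei. Gls2, a glutaminase that makes glutamate from glutamine, was higher (0.69, adjusted p = 0.000131), as was Glul, glutamine synthetase, which runs the reverse step (0.50, adjusted p = 0.00131). Slc1a3 was the 1 gene of the 22 called in the CeA comparison, at 7.30 ± 0.034 and 22.1 ± 8.02 CPM (n = 2 each, -1.58, adjusted p = 0.000867). In breakdown and other routes, Akr7a5, an aldehyde reductase that acts on succinic semialdehyde, was higher (1.03, adjusted p = 5.41e-07), while Maob (-1.52, adjusted p = 0.000223) and Aldh9a1 (-0.50, adjusted p = 0.0126), enzymes of the route to GABA from putrescine, were lower, and Gadl1 had -0.49 (adjusted p = 0.186). Pdxk, pyridoxal kinase, was not called (0.064, adjusted p = 0.719), nor was the anion channel Best1 (-0.39, adjusted p = 0.268). Between CeA and cortex, 4 of the 22 were higher (21.1% of all windows) and 6 lower (27.1%) in SOM+ nuclei, and 2 were higher (6.9%) and 2 lower (9.98%) in bulk nuclei.

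Fear conditioning was tested in SOM+ nuclei against controls, a comparison of 2 with 2 libraries in each region. No member was called in either region, averaged over regions or in the difference between regions, and edgeR called 0 of 25157 windows (0%) in each of these 4 tests. At an unadjusted p under 0.05 stood 598 windows in CeA, 288 in cortex, 530 over both regions and 371 for the difference, none of them a member, and DESeq2 and limma also called 0. Leaving out 1 library gave at most 4 called windows, none of them a member. In CeA the log2 differences were -0.15 (95% interval -0.58 to 0.27) for Gad1, 0.14 (-0.27 to 0.55) for Gad2, -0.062 (-0.49 to 0.37) for Slc32a1, 0.029 (-0.51 to 0.57) for Slc6a11 and 0.11 (-0.31 to 0.53) for Abat, each with an adjusted p of 1. In cortex they were 0.029 (-0.38 to 0.44) for Gad1, 0.055 (-0.35 to 0.46) for Gad2, -0.078 (-0.49 to 0.34) for Slc32a1, -0.025 (-0.45 to 0.40) for Slc6a11 and -0.12 (-0.52 to 0.27) for Abat. Fear and control values of Gad1 and Slc6a11 overlapped in both regions, those of Gad2 and Slc32a1 in cortex and those of Abat in CeA. In CeA both Gad2 values were higher and both Slc32a1 values lower in fear libraries. In cortex both Abat values were lower, while each of these intervals includes 0. The share of all windows with such a separation was not counted, so these separations are no result about the members.

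The Erbb4 knockout was tested in bulk nuclei of 3 KO and 2 WT libraries per region. KO library 2 and WT library 1 of each region were the libraries of contrary sex, so their genotype labels are uncertain. All KO libraries were labelled male, and only the first WT library of each region was labelled female. With labelled sex as a term, the KO difference averaged over regions therefore rested mainly on the second WT libraries. Slc6a11 over both regions had 15.5 CPM in KO and 16.1 CPM in WT libraries, yet a log2 difference of 0.11. The Erbb4 window itself had a log2 difference of -0.23 in CeA (adjusted p = 0.999) and -0.32 in cortex (adjusted p = 0.945). Whether this window lies in the deleted part is not given in the sources used here, and SOM+ nuclei are a minority of bulk nuclei, so it does not check the labels. No member was called in CeA, in cortex, over both regions or in the difference between regions. In each of these, edgeR called 0 of 25196 windows (0%), as did DESeq2, limma and edgeR with no sex term. The counts of 0 changed with 1 library. Without KO library 3 of cortex, edgeR called 985 windows in cortex, of which 105 were higher in KO and the rest lower, 125 over both regions, 2 for the difference and 1 in CeA, none of them a member. At an unadjusted p under 0.05 stood 745 windows in CeA, 823 in cortex, 872 over both regions and 590 for the difference. Gad2 in CeA was the only member among them, higher in KO at 70.8 ± 15.8 (n = 3) than in WT at 49.7 ± 5.67 CPM (n = 2) with every KO library above both WT ones. Its log2 difference of 0.53 ± 0.24 (95% interval 0.032 to 1.02) had an unadjusted p of 0.0379 and an adjusted p of 0.999, and so failed the correction. The unadjusted p was 0.05 or more with DESeq2, limma, total counts or the replicate block, and without KO library 1 or WT library 2 of CeA or KO library 2 of cortex. Fits without 1 library gave 0.11 to 0.66. All 3 CeA KO values of Slc6a11 were below both WT values. The remaining members overlapped between KO and WT in both regions, as did Gad2 and Slc6a11 in cortex. How many of all windows separate in this way was not counted, so the Gad2 and Slc6a11 separations are no result about the members. The other members in CeA had 0.29 (-0.21 to 0.79) for Gad1, 0.25 (-0.31 to 0.81) for Slc32a1, -0.18 (-0.79 to 0.42) for Slc6a11 and 0.30 (-0.17 to 0.76) for Abat. In cortex the differences were 0.18 (-0.37 to 0.74) for Gad1, -0.038 (-0.54 to 0.46) for Gad2, -0.13 (-0.70 to 0.44) for Slc32a1, 0.40 (-0.23 to 1.03) for Slc6a11 and 0.22 (-0.23 to 0.66) for Abat. The KO difference in CeA less that in cortex was -0.59 (interval -1.34 to 0.16) for Slc6a11 and 0.56 (interval -0.041 to 1.17) for Gad2, each with an adjusted p of 0.968. Without the 4 libraries of contrary sex, 1 WT library was left in each region. The CeA differences were then 0.17 (Gad1), 0.75 (Gad2), 0.58 (Slc32a1), -0.26 (Slc6a11) and 0.5 (Abat). Those in cortex were 0.46, -0.16, -0.56, 0.37 and 0.0041 in the same order. CeA less cortex was -0.28, 0.91, 1.14, -0.63 and 0.5. For Slc32a1 the main fit gave 0.38 (interval -0.31 to 1.08) there.

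**Figure D4:**
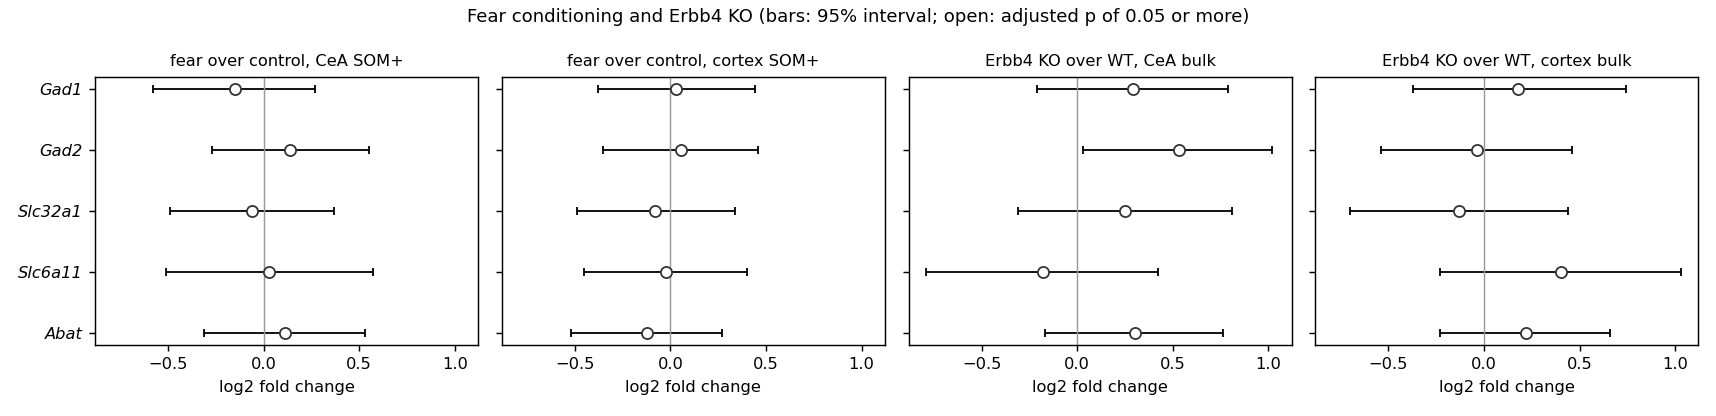
Log2 differences of the 5 windows for fear over control in SOM+ nuclei and for Erbb4 KO over WT in bulk nuclei, by region, with 95% intervals. Open points have an adjusted p of 0.05 or more. All points are open, and the interval of Gad2 in CeA KO (0.032 to 1.02) is the one that leaves out 0.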

How the data were processed

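The deposited values were raw read counts per promoter window, 1 column for each of 18 ATAC-seq libraries, in the mouse build mm9 per the file headers and the labels. Per the submitters' processing notes, the tools included Bowtie2, MACS2, Picard 1.88, Trimmomatic 0.32 and bcl2fastq 2.16.0.10. How reads were counted, shifted for Tn5 and cleared of duplicates is not given in the sources used here, and promoter totals are not sequencing depth. Of 26728 entries, 663 repeated a window and were dropped.

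The main test was the quasi-likelihood F test of edgeR 4.0.16 (R 4.3.3) on TMM-scaled counts, with windows kept by filterByExpr (minimum count 10, minimum total 15) and Benjamini-Hochberg adjustment over all windows, with a call at an adjusted p under 0.05. Comparisons of SOM+ with bulk nuclei used all 18 libraries (25246 windows, 9 residual degrees of freedom), those within SOM+ nuclei 8 libraries (25157 windows, 4 degrees of freedom) and those within bulk nuclei 10 libraries (25196 windows, 5 degrees of freedom). The first and the last had labelled sex as a term. SEs are the log2 difference over the square root of F. Likeness was taken from log2 CPM (prior count 2) over windows of at least 5 CPM on average. Alternatives were RLE and total count scaling, limma 3.58.1 on cyclic loess values, DESeq2 1.42.0, no filter, no sex term, a replicate block, 1 fit over all libraries and leaving out each library. The fits were tested on simulated data. The members and lists were chosen with earlier results of these data known. Genes named outside the members are up to 4 per role with the smallest p for SOM+ control against bulk WT, and the 5 most alike windows of each member. Some genes of these lists are counted but not reported singly here.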

Additional observations from a re-analysis of the deposited data

Results flagged for a closer look

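SOM+ control nuclei differed from bulk WT nuclei by unlike amounts in CeA and in cortex for 3 members, by a test of the difference between the 2 effects (edgeR, adjusted p over all windows). For Slc6a11 the effect in CeA less that in cortex was -2.49 (adjusted p = 1.7e-05), with SOM+ control nuclei at 11.8 ± 4.44 CPM and bulk WT nuclei at 20.9 ± 1.01 CPM in CeA, and at 36.8 ± 3.14 and 11.3 ± 1.32 CPM in cortex (SD, n = 2 each). For Slc32a1 it was -1.78 (adjusted p = 0.000115) and for Gad1 -1.43 (adjusted p = 0.000499), where SOM+ control nuclei were higher in both regions. No group held 4 libraries, so single libraries were not screened within groups.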

How the results depend on the processing

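The numbers of members called were the same under DESeq2, RLE size factors, no filter on low counts and no sex term in every comparison where each was run, and in the single fit over all 18 libraries. Under total counts 3 of 5 were called for SOM+ control against bulk WT over both regions, against 15523 of 25246 windows. In CeA 2 were called, against 5811 of 25246 windows. For CeA against cortex in SOM+ nuclei 3 were called, against 12854 of 25157 windows. With limma on cyclic loess values 2 of 5 members were called for SOM+ control against bulk WT over both regions, 1 in CeA and 3 in cortex. Of all 25246 windows 14389, 5572 and 14671 were called in the same order. These member counts lay near or below the share over all windows. Without the 4 libraries of contrary sex, an alternative added after seeing the data, 0 were called for SOM+ control against bulk WT in CeA, 3 in cortex, 3 over both regions and 3 for CeA against cortex in bulk nuclei, on fewer libraries. Leaving out 1 library gave 1 to 3 members for SOM+ control against bulk WT in CeA and 3 to 5 for CeA against cortex in bulk nuclei. Total counts moved the median of all windows to -0.27 for SOM+ control against bulk WT over both regions and to 0.26 for CeA against cortex in SOM+ nuclei.

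Signs turned only for member values that were not called. With limma on cyclic loess values Abat was at -0.16 for SOM+ control against bulk WT over both regions and -0.099 in cortex, and for CeA against cortex in SOM+ nuclei Gad1 was at 0.20 and Slc32a1 at 0.18. In that comparison Abat was called, at 0.38 (adjusted p = 0.0151). Total counts gave 0.14 for Gad1 and 0.12 for Slc32a1 there, 0.0044 for Abat in fear against control over both regions, 0.068 for Gad2 in KO against WT in cortex, and -0.069 for Gad1 and -0.078 for Abat in the KO effect of CeA less that of cortex. Slc6a11 in fear against control over both regions was at -0.0037 with RLE size factors, -0.011 with no filter and -0.006 in 1 fit over all libraries, which also gave -0.04 for Slc6a11 in KO against WT over both regions. Without the 4 libraries Abat was at 0.39 for SOM+ control against bulk WT in CeA and 0.017 for the CeA less cortex difference of that effect, and Gad1 at -0.28 for the KO effect of CeA less that of cortex. The cause of these changes was not tested. Leaving out 1 library also turned signs of uncalled values. For KO against WT over both regions they ran from -0.14 to 0.6 for Abat, -0.13 to 0.57 for Gad1, -0.037 to 0.44 for Gad2, -0.44 to 0.47 for Slc32a1 and -0.033 to 0.18 for Slc6a11. For KO against WT in CeA they ran from -0.29 to 0.49 for Abat and -0.49 to 0.46 for Slc32a1. For the KO effect in CeA less that in cortex they ran from -0.31 to 0.47 for Abat, -0.31 to 0.47 for Gad1 and -0.099 to 0.84 for Slc32a1. For fear against control in CeA they ran from -0.13 to 0.26 for Abat and -0.26 to 0.49 for Slc6a11. For fear against control over both regions they ran from -0.13 to 0.061 for Abat and -0.15 to 0.24 for Slc6a11. For the fear effect in CeA less that in cortex they ran from -0.0037 to 0.4 for Abat, -0.018 to 0.23 for Gad2, -0.089 to 0.15 for Slc32a1 and -0.22 to 0.51 for Slc6a11. For SOM+ control against bulk WT in CeA they ran from -0.4 to 0.41 for Abat. For CeA against cortex in SOM+ nuclei they ran from -0.14 to 0.05 for Gad1 and -0.16 to 0.027 for Slc32a1. For KO against WT in cortex they ran from -0.36 to 0.42 for Gad1, -0.18 to 0.25 for Gad2 and -0.39 to 0.48 for Slc32a1. For fear against control in cortex they ran from -0.024 to 0.064 for Gad1, -0.087 to 0.16 for Gad2, -0.21 to 0.027 for Slc32a1 and -0.13 to 0.05 for Slc6a11.

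Same-numbered libraries of groups compared correlated in their deviations from group means at -0.349 to 0.463, both ends being KO with WT. Between CeA and cortex they correlated at -0.301 to 0.403 in bulk groups, and at 0.191 (control) and 0.0678 (fear) in SOM+ groups. Y-linked counts were present or absent alike in both regions for each number of a group. In each SOM+ group library 1 was labelled male and library 2 female. There, neither these correlations nor a replicate block can tell the number apart from sex. Whether such libraries shared mice is not given in the sources used here, and the numbers were not taken as pairs. With a replicate block the members called stayed at 4 for SOM+ control against bulk WT over both regions, 3 in CeA and 4 in cortex, 3 for the difference between the regions, 2 for the region in SOM+ nuclei and 5 in bulk nuclei, and 0 for fear and KO. Over all windows the block gave 3 calls for KO in CeA, in cortex and over both regions, and the fit over all libraries gave 1 for KO over both regions, none of them a member. Without KO library 3 of cortex 985 windows were called for KO in cortex and 125 over both regions, again with no member. Groups of 2 or 3 libraries and windows of as few as 32 reads limit what these tests can detect, and a p above the threshold does not show equal accessibility.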
